A study of Mus musculus with 6 samples.

Results

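The genes described here are 33 members of sterol synthesis, uptake and their regulation, chosen by symbol from the 17256 genes of the deposited table. All 33 were in the table, and all 33 passed the filter on low counts that left 13071 genes for testing. The RNA came from the epithelium of the antrum, the part of the stomach next to the pylorus, of C57BL/6 mice. Atrophic gastritis had been induced over 20 weeks with the alkylating carcinogen MNNG together with a drug that the labels spell Ranitine. The PEEPA-P5 group (3 libraries) was then given PEEPA-P5, known here only by that code name, by gavage for 2 weeks, and the vehicle group (3 libraries) was given vehicle for 2 weeks. Both groups carry the induced gastritis, and animals without it were not analysed here. The labels give neither age nor sex. They also leave unsaid whether each library is a mouse of its own, so p-values speak only of the spread among these libraries, part of which may be technical.

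Cells make cholesterol from acetyl-CoA by way of mevalonate, farnesyl pyrophosphate, squalene and lanosterol. The transcription factor SREBP2, encoded by Srebf2, sits in the endoplasmic reticulum bound to its escort SCAP, and INSIG proteins hold both there while sterols are plentiful. When sterols run low, SREBP2 is cut free and turns on the genes of the pathway and of sterol uptake. LXR receptors work the other way: oxysterols activate them, and they turn on exporters of cholesterol such as ABCA1 and ABCG1, as well as MYLIP, a ubiquitin ligase that promotes the breakdown of lipoprotein receptors. A lining that renews quickly, such as that of the stomach, needs cholesterol for new membranes.

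Total counts ran from 16388844 to 16903545 per library. Surface mucous cell genes of the stomach dominated every library, with a summed level over 6 of 6 markers of 341798 to 388281 TPM with PEEPA-P5 and 293656 to 338645 TPM with vehicle. Gast, the gastrin gene of antral G cells, was present in all libraries. It had 7032, 4990 and 199 TPM in PEEPA-P5 1, 2 and 3 and 9492, 6822 and 609.6 TPM in vehicle 1, 2 and 3. In both groups the library numbered 3 was by far the lowest for Gast. The summed level of 8 of 8 pan-epithelial markers (Krt8, Krt18, Cdh1, Epcam and others) was 7349.9, 7499 and 7617 TPM in PEEPA-P5 1, 2 and 3 and 7214, 6562 and 5492 TPM in vehicle 1, 2 and 3. Sums of the markers of other cells varied between groups and libraries. Parietal markers (6 of 6) summed to 22.8 to 396 TPM with PEEPA-P5 and 426 to 3458 TPM with vehicle, and chief cell markers (4 of 4) to 2077 to 8906 TPM with PEEPA-P5 and 8371 to 68618 TPM with vehicle. Fibroblast markers (6 of 6) summed to 5.04 to 73.8 TPM with PEEPA-P5 and 39.5 to 111 TPM with vehicle, endothelial markers (5 of 5) to 1.83 to 13.2 TPM with PEEPA-P5 and 12.1 to 19.96 TPM with vehicle, smooth muscle markers (5 of 5) to 7.55 to 108 TPM with PEEPA-P5 and 55.5 to 146 TPM with vehicle and macrophage markers (6 of 6) to 7.62 to 52.7 TPM with PEEPA-P5 and 25.8 to 61.7 TPM with vehicle. The lowest of each of these last 4 ranges was that of PEEPA-P5 3. The 5 antral gland markers summed to 350.1 to 7505 TPM with PEEPA-P5 and 1441 to 9890.3 TPM with vehicle. Adipocyte markers (4 of 6 in the table) summed to 54.5 to 86.3 TPM with PEEPA-P5 and 61.5 to 113 TPM with vehicle, with the defining Adipoq at no more than 1 count in any library, and squamous markers (4 of 7) summed to 2.43 to 9.02 TPM with PEEPA-P5 and 1.43 to 3.56 TPM with vehicle, with Krt5 and Krt14 at no more than 1 count. In such bulk samples fewer cells of a type and less RNA per cell cannot be told apart.

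Measured with TMM scaling, most enzymes of sterol synthesis had higher mean levels with PEEPA-P5; with libraries scaled to the pan-epithelial markers 12 of the 19 did. With TMM, 18 of the 19 synthesis genes had a positive log2 difference, with a median of 0.40 beside -0.0047 over all 13071 tested genes, of which 49.4% were positive. In edgeR's quasi-likelihood test an unadjusted p under 0.05 was reached by 11 of the 19, all of them higher, where 5.92% of all tested genes were higher at that p. The groups did not overlap in 9 of the 19, all higher with PEEPA-P5, against 9.74% of all tested genes. No synthesis gene passed an adjusted p of 0.05 over all genes, and neither did any other gene: 0% were called higher and 0% lower, and the smallest adjusted p was 0.412, with 1576 genes at an unadjusted p under 0.05. The pan-epithelial and surface mucous marker sums given above did not overlap either and were higher in the PEEPA-P5 libraries. In PEEPA-P5 1, Krt8 alone gave 4392 of 7349.9 TPM and Tff1 alone 245300 of 341798 TPM of these sums. Taken singly in CPM, 6 of 8 pan-epithelial and 6 of 6 surface mucous markers were higher without overlap. Of the pan-epithelial markers 1 had a negative difference. With TMM the median log2 difference was 0.30 for the pan-epithelial and 0.33 for the surface mucous markers. The part of these markers' cells in the synthesis values was not tested. The values below are therefore given as measured, in CPM (counts scaled to the TMM-adjusted library size), library 1, 2 and 3 in that order. Beside them stand the log2 difference from the edgeR test and an approximate standard error. That error is the absolute log2 difference divided by the square root of the test's F value.

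The first steps lead from acetyl-CoA to mevalonate and its phosphates. Acat2, the cytosolic thiolase that joins acetyl-CoA units, had 47.7, 37.7 and 31.1 CPM with PEEPA-P5, against 36.98, 29.1 and 30.2 CPM with vehicle, a log2 difference of 0.27 ± 0.18, and the groups overlapped. Acat2 shares 43.7% of its transcript sequence with Acat3, which had between 2.42 and 12.15 estimated counts per library, so the division of reads between them is uncertain. Hmgcs1, which condenses acetoacetyl-CoA and acetyl-CoA to HMG-CoA, had 666, 479 and 389 CPM with PEEPA-P5, against 379, 265 and 281 CPM with vehicle. Every PEEPA-P5 library stood above every vehicle library, with PEEPA-P5 3 and vehicle 1 close together, and the log2 difference was 0.73 ± 0.23 (unadjusted p of 0.014, adjusted p of 0.412). Mvk, the mevalonate kinase, had 49.3, 39.3 and 43.8 CPM with PEEPA-P5, against 42.1, 29.2 and 32.2 CPM with vehicle, a difference of 0.35 ± 0.16. Vehicle 1 lay above PEEPA-P5 2, so the Mvk groups overlapped. Pmvk, the next kinase, had 31.4, 28.1 and 31.3 CPM with PEEPA-P5, against 25.5, 24.01 and 24.4 CPM with vehicle, with no overlap and a smaller difference of 0.30 ± 0.10.

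Mvd, the decarboxylase that makes isopentenyl pyrophosphate, had 63.5, 42.3 and 31.6 CPM with PEEPA-P5, against 29.6, 21.5 and 24.9 CPM with vehicle. Its log2 difference of 0.85 ± 0.26 was the highest of the 33 genes (unadjusted p of 0.013, adjusted p of 0.412). The groups did not overlap, and PEEPA-P5 1 stood far above the other 5 libraries. Idi1, the isopentenyl isomerase, had 180.1, 149 and 121 CPM with PEEPA-P5, against 112, 77.4 and 101 CPM with vehicle, again without overlap and with a difference of 0.64 ± 0.19. Fdps, which makes farnesyl pyrophosphate, had 261, 227 and 200.1 CPM with PEEPA-P5, against 208, 158 and 153 CPM with vehicle, where PEEPA-P5 3 lay just below vehicle 1. The Fdps difference was 0.41 ± 0.16. Fdft1, squalene synthase, had 241, 179.8 and 132 CPM with PEEPA-P5, against 162, 118 and 113 CPM with vehicle, with PEEPA-P5 3 inside the vehicle range and a difference of 0.49 ± 0.24. Of these genes Idi1, Fdps and Fdft1 share 18.8%, 27.9% and 14.3% of their transcript sequence with other annotated genes, most of it with predicted genes, and 20.9% of the exon bases of Fdft1 overlap Ctsb on the opposite strand. Fdps overlaps the predicted gene Gm43738 on the same strand over 77.4% of its exon bases. Opposite-strand overlaps cover 16% of the exon bases of Hmgcs1, 10.7% of Idi1, 8.16% of Lss and 18.6% of Scap, and Tm7sf2 shares 12.9% of its sequence, mostly with Vps51. The labels name an Illumina TruSeq RNA kit and no strand setting, so reads of such overlaps cannot be told apart. All 8 genes up to squalene were higher with PEEPA-P5 within each of the numbered pairs 1, 2 and 3, beside 22.4% of all tested genes. The labels do not say what the numbers mark, and the pairing was taken from these data.

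The later steps lead from squalene by way of lanosterol to cholesterol. Sqle, the squalene epoxidase, had 140.0, 134 and 92.2 CPM with PEEPA-P5, against 96.7, 92.7 and 80.4 CPM with vehicle, a difference of 0.44 ± 0.17, with PEEPA-P5 3 just below vehicle 1 and 2. Lss, which closes the sterol ring to lanosterol, had 81.4, 58.5 and 37.4 CPM with PEEPA-P5, against 47.3, 49.6 and 45.5 CPM with vehicle. PEEPA-P5 1 was the highest and PEEPA-P5 3 the lowest library of Lss, so its difference of 0.32 ± 0.26 was little larger than its standard error. Cyp51, the lanosterol demethylase, had 249.9, 200.1 and 214 CPM with PEEPA-P5, against 169, 146 and 165 CPM with vehicle. The groups were separate, and its difference of 0.47 ± 0.12 had the smallest p of the 33 genes (unadjusted p of 0.0051, adjusted p of 0.412). DESeq2, run on the same counts, gave Cyp51 an adjusted p of 0.0497 and no other member one under 0.05; it called 0.298% of all tested genes higher. With the replicate number as a block, added after the data were seen, DESeq2 gave an adjusted p of 0.000955 to Hmgcs1, 0.0427 to Mvd, 0.0432 to Cyp51 and 0.0276 to Msmo1, and called 0.474% of all tested genes higher. Msmo1, the methylsterol oxidase, had 258, 196 and 165 CPM with PEEPA-P5, against 161, 138 and 126 CPM with vehicle, also separate, with a difference of 0.54 ± 0.18.

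Tm7sf2 and Lbr both encode sterol reductases that act on the same double bond, and the groups overlapped in both. Tm7sf2 had 14.9, 12.7 and 15.5 CPM with PEEPA-P5, against 14.8, 12.8 and 11.1 CPM with vehicle, a difference of 0.15 ± 0.16. Lbr, whose product is also a lamin receptor of the nuclear envelope, had 38.8, 35.6 and 24.7 CPM with PEEPA-P5, against 36.7, 35.7 and 32.99 CPM with vehicle, and its difference of -0.089 ± 0.17 was the only negative one among the synthesis genes. Nsdhl, the sterol dehydrogenase of the demethylating complex, had 55.8, 49.3 and 41.9 CPM with PEEPA-P5, against 53.9, 45.7 and 38.6 CPM with vehicle, with full overlap and a difference of 0.088 ± 0.16.

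Hsd17b7, the ketoreductase of that complex, had 28.3, 20.5 and 19.8 CPM with PEEPA-P5, against 16.9, 18.7 and 15.1 CPM with vehicle, separate groups and a difference of 0.44 ± 0.17. Ebp, the sterol isomerase, had 109, 102 and 119 CPM with PEEPA-P5, against 98.4, 76.3 and 74.6 CPM with vehicle. Ebp was highest in PEEPA-P5 3, unlike most of the pathway, and its difference was 0.40 ± 0.13 with separate groups. Sc5d, the sterol desaturase, had 118, 103 and 115 CPM with PEEPA-P5, against 98.6, 98.3 and 90.1 CPM with vehicle, separate groups and a difference of 0.23 ± 0.10. Dhcr7, one of the last reductases, had 49.9, 40.3 and 34.4 CPM with PEEPA-P5, against 33.8, 33.5 and 38.05 CPM with vehicle, with overlap and a difference of 0.24 ± 0.15. The median log2 difference was 0.45 over the 8 genes up to squalene and 0.32 over the 11 after it, and whether these medians differ was not tested.

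**Figure D1:**
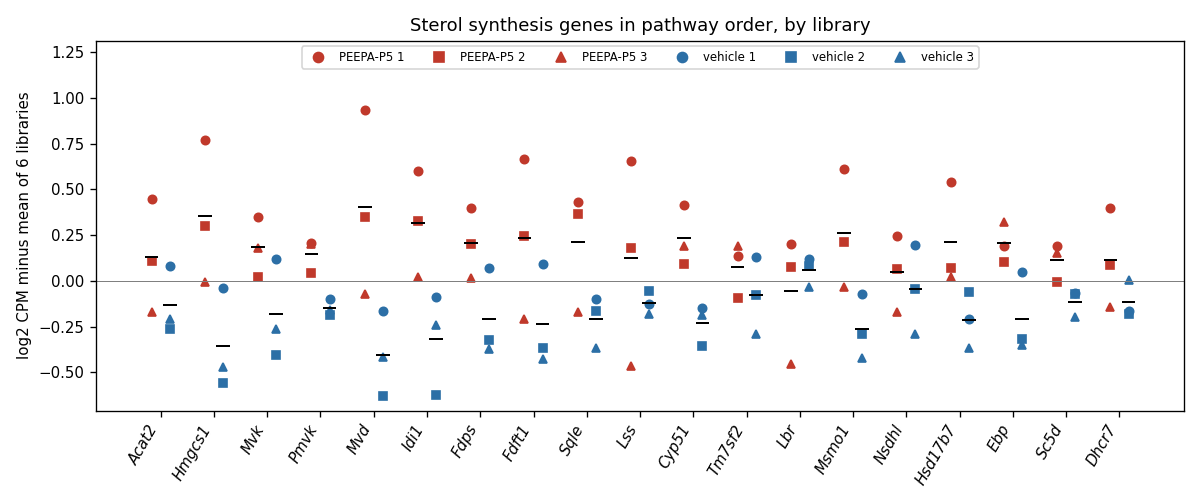
Each point is 1 library's log2 CPM of a synthesis gene minus the gene's mean over the 6 libraries, with genes in pathway order from left to right, PEEPA-P5 in red left of vehicle in blue, and short black bars at the group means. PEEPA-P5 1 (red circle) is the highest library in 17 of the 19 genes, and PEEPA-P5 3 (red triangle) lies among the vehicle libraries in several of them.

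SREBP proteins bind sterol regulatory elements in promoters, commonly beside NF-Y at CCAAT boxes and Sp1 at GC boxes. Shown are the promoters of the 5 synthesis genes with the largest differences among those without overlap, and that of Lbr. Lbr was the one synthesis gene with a negative difference. The set was chosen after these values were seen. Of it only Hmgcs1 holds an exact TCACNCCAC, and sterol regulatory elements that depart from these letters are not marked. Each sequence is the 200 bases before the annotated start, 5′ to 3′ on the gene's own strand, from RefSeq on GRCm38.p6, with sterol regulatory elements (TCACNCCAC) and CCAAT boxes (CCAAT), on either strand, in capitals.
Mvd: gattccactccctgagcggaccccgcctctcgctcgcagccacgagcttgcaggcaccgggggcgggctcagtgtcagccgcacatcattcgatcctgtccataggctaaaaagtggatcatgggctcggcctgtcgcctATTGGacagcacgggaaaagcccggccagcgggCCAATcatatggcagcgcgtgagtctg
Hmgcs1: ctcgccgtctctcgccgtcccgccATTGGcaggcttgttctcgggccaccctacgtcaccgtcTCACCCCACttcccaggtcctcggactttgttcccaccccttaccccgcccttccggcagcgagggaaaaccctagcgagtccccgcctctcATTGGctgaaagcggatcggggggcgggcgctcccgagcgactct
Idi1: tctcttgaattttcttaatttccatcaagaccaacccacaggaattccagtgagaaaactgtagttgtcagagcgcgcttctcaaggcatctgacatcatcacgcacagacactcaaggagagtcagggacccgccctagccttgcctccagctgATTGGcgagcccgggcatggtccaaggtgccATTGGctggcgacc
Msmo1: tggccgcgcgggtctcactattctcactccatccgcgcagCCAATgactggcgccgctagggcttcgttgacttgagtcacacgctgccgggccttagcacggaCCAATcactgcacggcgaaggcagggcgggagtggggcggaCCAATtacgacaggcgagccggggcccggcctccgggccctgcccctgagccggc
Cyp51: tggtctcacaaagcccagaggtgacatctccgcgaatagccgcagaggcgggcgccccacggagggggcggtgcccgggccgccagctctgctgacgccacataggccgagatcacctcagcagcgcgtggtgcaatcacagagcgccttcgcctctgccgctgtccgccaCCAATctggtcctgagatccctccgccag
Lbr: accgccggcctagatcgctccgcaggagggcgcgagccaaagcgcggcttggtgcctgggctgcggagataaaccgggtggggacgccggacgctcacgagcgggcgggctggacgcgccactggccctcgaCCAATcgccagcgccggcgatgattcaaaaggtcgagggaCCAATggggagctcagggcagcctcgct
These stretches lie at chr8:122443423-122443622 on the minus strand (Mvd), chr13:119690151-119690350 on the plus strand (Hmgcs1), chr13:8885406-8885605 on the plus strand (Idi1), chr8:64733579-64733778 on the minus strand (Msmo1), chr5:4104698-4104897 on the minus strand (Cyp51) and chr1:181842402-181842601 on the minus strand (Lbr).

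RefSeq promoter windows of 300 bases, from 250 before to 50 after a start, were matched for 16 of the 19 synthesis genes and 11 of the 14 others. Of the 16, only Hmgcs1 held TCACNCCAC, which 1.44% of the 27025 genes with windows hold. The shorter CACNCCAC, which overlaps it, stood in 2 of the 16 and in 7.12% of all genes, and was added after the first search. CCAAT stood in 15 of the 16 and in 7 of the 11 others, against 41.1% of all genes, and the GC box GGGCGG in 15 of the 16 and 9 of the 11, against 38.2%. Some genes have several windows, which raises their chance of a match. The 27025 genes were not limited to those expressed here, whereas all the members passed the count filter, so the shares are not like for like. The Lbr window holds 2 CCAAT boxes and 2 GC boxes, and that of Cyp51 1 of each. The LXR direct repeat, AGGTCA repeated after any 4 bases, stood in none of the 16 or the 11, and in 0.0148% of all genes. A match is a run of letters and not a measured binding site. Only exact matches were searched, so a missing match does not show that an element is absent.

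Levels between genes are compared in TPM, the authors' length-scaled value. Averaged over the 6 libraries, Fdps was the highest of the 33, at 219.8 ± 42.5 TPM with PEEPA-P5 and 177 ± 36.3 TPM with vehicle (SD, n = 3 each), followed by Hmgcs1 at 152 ± 49.1 TPM with PEEPA-P5 and 97.05 ± 20.2 TPM with vehicle and Msmo1 at 124 ± 34.8 TPM with PEEPA-P5 and 91.5 ± 16.6 TPM with vehicle. In the vehicle libraries Fdps stood above Hmgcs1 without overlap, whereas Hmgcs1 and Msmo1 overlapped. Ebp, Fdft1, Idi1, Srebf2, Cyp51, Insig1, Nr1h2, Sc5d, Sqle and Scap formed a run from 63.6 down to 40.4 TPM in which each gene overlapped the next in the vehicle libraries. Among the synthesis enzymes the lowest were Lss, at 9.50 ± 3.997 TPM with PEEPA-P5 and 8.08 ± 1.35 TPM with vehicle, and Hsd17b7, at 5.07 ± 1.25 TPM with PEEPA-P5 and 4.03 ± 0.861 TPM with vehicle, which did not overlap each other in vehicle. The exporters Abcg1 and Abca1 were the lowest of all, at 0.390 ± 0.212 TPM with PEEPA-P5 and 0.347 ± 0.0971 TPM with vehicle and at 0.240 ± 0.115 TPM with PEEPA-P5 and 0.380 ± 0.0700 TPM with vehicle. On this scale the 19 synthesis genes summed to 1231, 1033 and 782 TPM in PEEPA-P5 1, 2 and 3, and to 903, 809.6 and 647 TPM in vehicle 1, 2 and 3, so that the group ranges overlapped.

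**Figure D2:**
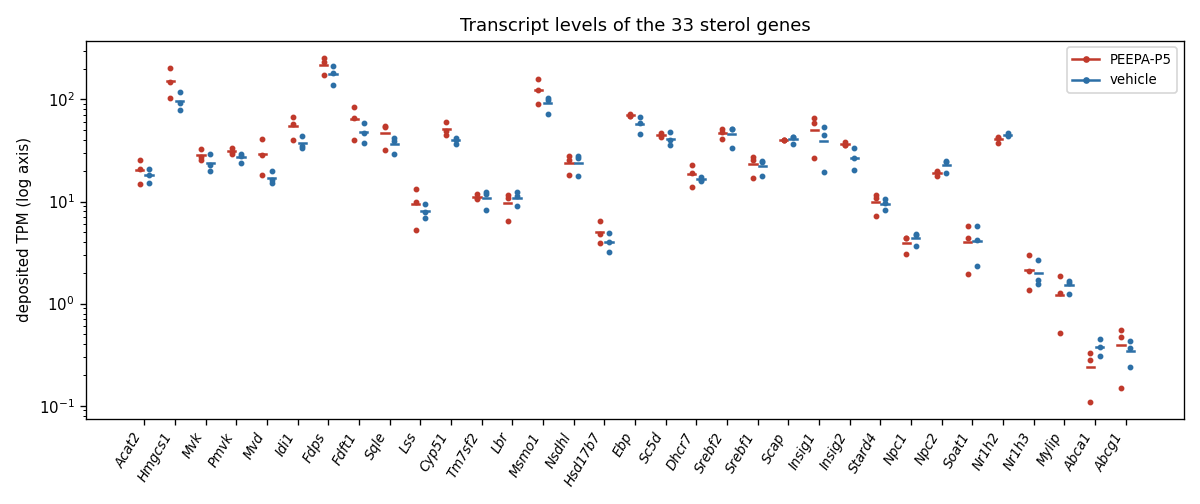
Deposited TPM on a log axis for the 33 genes, in pathway order and then by role, with a dot for each library, a line at the mean of 3 libraries, and PEEPA-P5 in red left of vehicle in blue. Fdps, Hmgcs1 and Msmo1 stand highest, and Abca1 and Abcg1 lie below 1 TPM in both groups.

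The 14 members outside synthesis had a median difference of 0.11, and 9 of them were positive, beside 49.4% of all tested genes. The 5 genes of the SREBPs and their retention, Srebf2, Srebf1, Scap, Insig1 and Insig2, all had positive differences with TMM scaling, with a median of 0.18. However, Srebf2, Srebf1 and Scap were negative when scaled to the pan-epithelial markers. Of the 5, 1 was higher at an unadjusted p under 0.05, as 5.92% of all tested genes were. Srebf2, the gene of SREBP2 itself, had 249, 225 and 226 CPM with PEEPA-P5, against 239, 207 and 171 CPM with vehicle, a difference of 0.18 ± 0.14 with overlap. Srebf1, whose products drive mainly fatty acid synthesis, had 112, 103 and 78.4 CPM with PEEPA-P5, against 96.9, 89.7 and 78.8 CPM with vehicle, a difference of 0.15 ± 0.15. Scap had 163, 157 and 184 CPM with PEEPA-P5, against 169.7, 149 and 158 CPM with vehicle, a difference of 0.083 ± 0.10, which was negative when libraries were scaled by their totals or taken in TPM.

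INSIG proteins retain SCAP and SREBP in the endoplasmic reticulum, and Insig1 is itself a target of SREBP. Insig1 had 161, 141 and 74.1 CPM with PEEPA-P5, against 106, 114 and 51.2 CPM with vehicle. In both groups the library numbered 3 was by far the lowest, so the unpaired standard error was wide, with a difference of 0.47 ± 0.39 (unadjusted p of 0.27, adjusted p of 0.618). Without PEEPA-P5 1 the Insig1 difference was 0.25, without vehicle 3 it was 0.19, and without PEEPA-P5 3 it was 0.74. With the replicate number as a block the edgeR difference of Insig1 was 0.48 ± 0.10 (unadjusted p of 0.0054, adjusted p of 0.364). Each PEEPA-P5 library stood above the vehicle library of its number. The pairing behind this block was taken from the same data, so the smaller Insig1 error is no independent evidence. Insig2 had 81.3, 80.3 and 101 CPM with PEEPA-P5, against 73.8, 40.95 and 65.6 CPM with vehicle. Its groups were separate, with vehicle 2 far below the rest and PEEPA-P5 3 the highest, and the difference was 0.33 without vehicle 2 and 0.54 ± 0.22 with all libraries (unadjusted p of 0.043, adjusted p of 0.412).

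The carriers and storage genes showed no common direction, with a median difference of 0.0025 over 4 genes and none at an unadjusted p under 0.05. Stard4, a cytosolic sterol carrier, had 60.2, 53.7 and 42.01 CPM with PEEPA-P5, against 41.6, 47.6 and 53.5 CPM with vehicle, a difference of 0.13 ± 0.16. Npc1 and Npc2 move cholesterol out of lysosomes. Npc1 had 15.4, 21.5 and 25.01 CPM with PEEPA-P5, against 17.9, 20.9 and 25.3 CPM with vehicle, a difference of -0.052 ± 0.21. Npc2 had 59.9, 59.4 and 62.7 CPM with PEEPA-P5, against 55.9, 66.7 and 79.6 CPM with vehicle, a difference of -0.15 ± 0.14. In both genes the groups overlapped. Soat1, which esterifies cholesterol for storage, had 20.2, 25.6 and 9.81 CPM with PEEPA-P5, against 18.7, 23.2 and 11.6 CPM with vehicle, a difference of 0.057 ± 0.39. Soat1 was lowest in the 2 libraries numbered 3.

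Apart from Nr1h2, the LXR genes and their targets were among the lowest of the 33 in TPM, and none of the 5 reached an unadjusted p under 0.05. Nr1h2, the gene of LXR beta, had 78.5, 66.8 and 85.8 CPM with PEEPA-P5, against 82.2, 71.4 and 85.8 CPM with vehicle, a difference of -0.051 ± 0.13. Nr1h3, the gene of LXR alpha, had 4.46, 3.15 and 2.35 CPM with PEEPA-P5, against 2.47, 3.40 and 2.56 CPM with vehicle, a difference of 0.24 ± 0.34 from 35 to 74 counts with PEEPA-P5 and 40 to 63 with vehicle. The range was wider in the PEEPA-P5 libraries, and the groups overlapped. Mylip had 3.55, 5.02 and 1.61 CPM with PEEPA-P5, against 3.34, 4.05 and 4.80 CPM with vehicle, a difference of -0.25 ± 0.42 from 24 to 86 counts with PEEPA-P5 and 58 to 75 with vehicle, with PEEPA-P5 3 the lowest library and PEEPA-P5 2 the highest.

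Abca1, the exporter that loads cholesterol onto apolipoprotein A-I, had 2.89, 3.21 and 1.28 CPM with PEEPA-P5, against 3.74, 3.88 and 3.39 CPM with vehicle. All PEEPA-P5 libraries lay below all vehicle libraries, as in 10.7% of all tested genes, but the counts were few, at 19 to 55 with PEEPA-P5 and 53 to 72 with vehicle. The Abca1 difference was -0.57 ± 0.38 (unadjusted p of 0.18, adjusted p of 0.542), and -0.26 without PEEPA-P5 3. Abcg1, which exports cholesterol to lipoprotein particles, had 2.65, 3.04 and 0.941 CPM with PEEPA-P5, against 2.36, 1.19 and 2.24 CPM with vehicle, a difference of 0.20 ± 0.52 from 14 to 52 counts with PEEPA-P5 and 22 to 41 with vehicle. Mylip, Abca1 and Abcg1 were all lowest in PEEPA-P5 3, which also had the lowest sums of the fibroblast, endothelial, smooth muscle and macrophage markers given above; the part of those cells in these values was not tested.

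**Figure D3:**
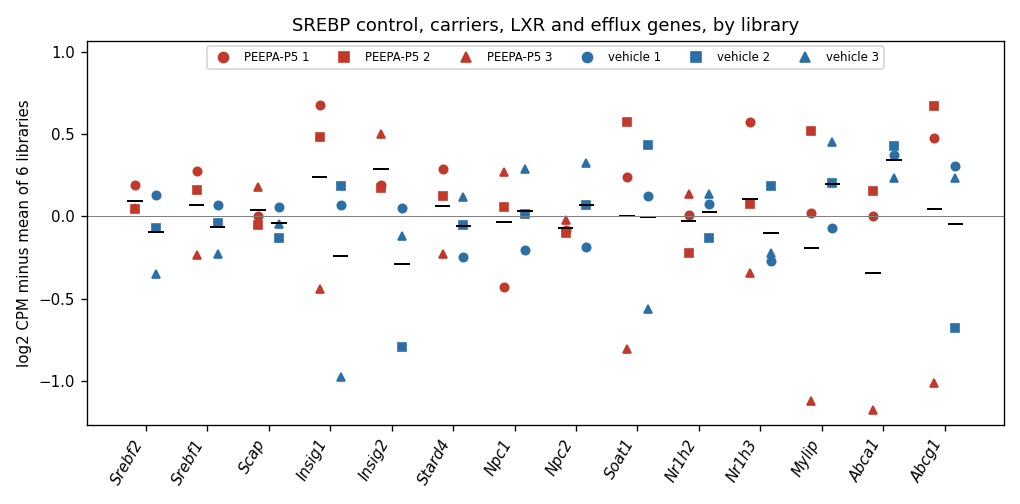
Each point is 1 library's log2 CPM of a regulator, carrier, LXR or efflux gene minus its mean over the 6 libraries, with PEEPA-P5 in red left of vehicle in blue and black bars at the group means. The groups do not overlap in Insig2 and Abca1, and PEEPA-P5 3 (red triangle) is the lowest library for Mylip, Abca1 and Abcg1.

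**Figure D4:**
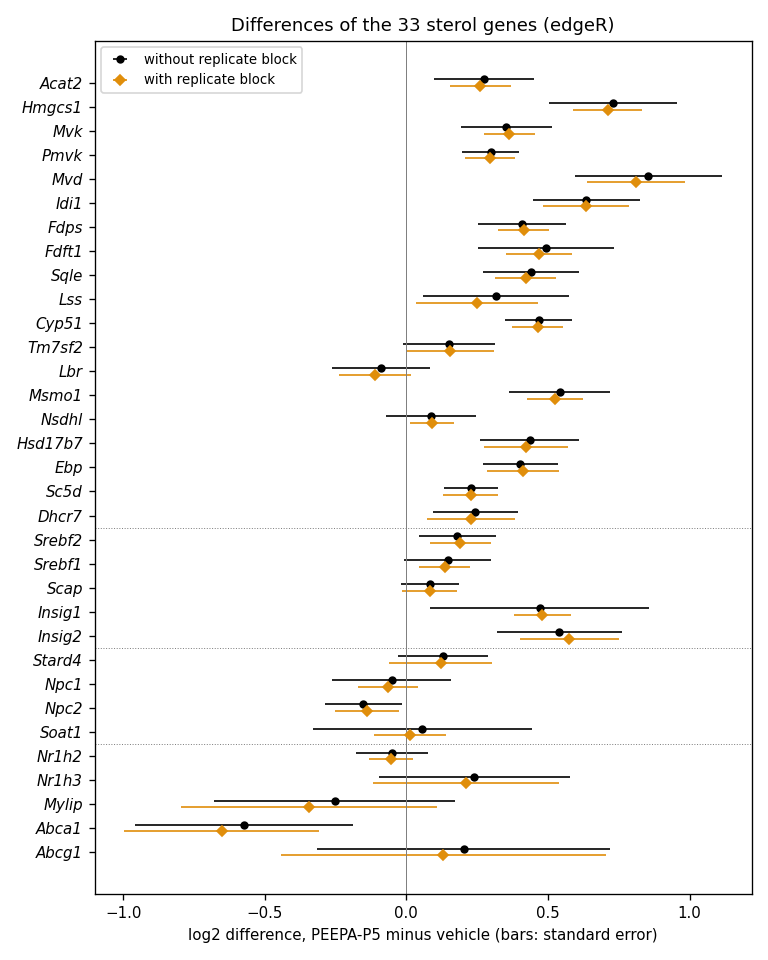
Log2 difference of PEEPA-P5 minus vehicle for each of the 33 genes, with bars for the approximate standard error derived from the test's F value. The unpaired edgeR fit is in black and the fit with the replicate number as a block in orange. Dotted lines stand between the roles. Synthesis genes at the top lie mostly right of 0, with Mvd at 0.85 and Lbr at -0.089, and the bars of Insig1 narrow with the block.

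Related genes of lipid and isoprenoid metabolism were read from lists written with earlier results of these data known. Their counts of positive differences stand beside 49.4% of all tested genes. With TMM scaling, of 14 tested genes of fatty acid synthesis and desaturation, 12 had positive differences, with a median of 0.33, and an unadjusted p under 0.05 was reached by 3 genes, all higher, beside 5.92% of all tested genes. Mid1ip1, which activates acetyl-CoA carboxylase, had 281, 234 and 280.0 CPM with PEEPA-P5, against 202, 186 and 183 CPM with vehicle, a difference of 0.48 ± 0.11. Me1, the malic enzyme that makes NADPH, had 1081, 1115 and 1168 CPM with PEEPA-P5, against 979.8, 814 and 675 CPM with vehicle, a difference of 0.45 ± 0.15. Scd1, a desaturase, had 22.6, 17.9 and 11.2 CPM with PEEPA-P5, against 12.4, 11.2 and 7.24 CPM with vehicle, a difference of 0.74 ± 0.30 with overlap. Of 12 genes of the branches that use isoprenoids for other products, 7 were positive, with a median of 0.056, and 4 reached an unadjusted p under 0.05, all higher, again beside 5.92% of all tested genes.

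Those 4 were Pdss2, which acts in ubiquinone synthesis, Dhdds and Nus1, which form the dehydrodolichyl diphosphate synthase, and Fnta, a prenyltransferase subunit. Their differences were 0.51 ± 0.18, 0.28 ± 0.10, 0.24 ± 0.092 and 0.24 ± 0.10. Of 9 tested genes of SREBP cleavage and sterol-regulated degradation, 8 were negative, with a median of -0.16, where 49.4% of all tested genes were positive. Among them Mbtps1, the site-1 protease that makes the first cut in SREBP, had 66.4, 65.05 and 51.8 CPM with PEEPA-P5, against 70.5, 84.2 and 72.4 CPM with vehicle, a difference of -0.31 ± 0.13, and was the only one lower at an unadjusted p under 0.05, as 6.14% of all tested genes were.

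Of 17 lipoprotein receptor and sterol movement genes, 10 were positive, beside 49.4% of all tested genes, with a median of 0.043. Of the 17, 2 were lower at an unadjusted p under 0.05, beside 6.14% of all tested genes. Cd36, a scavenger receptor and fatty acid transporter, had 1.26, 5.08 and 0.538 CPM with PEEPA-P5, against 6.56, 27.5 and 45.99 CPM with vehicle, a difference of -3.52 ± 1.01 (unadjusted p of 0.013, adjusted p of 0.412). Vehicle 2 and vehicle 3 were its highest libraries, and the parietal and chief marker sums were also highest in these 2; the part of those cells in the Cd36 values was not tested. Gramd1a, which carries sterol from the plasma membrane to the endoplasmic reticulum, had 9.94, 10.8 and 6.18 CPM with PEEPA-P5, against 10.8, 15.9 and 22.9 CPM with vehicle, a difference of -0.87 ± 0.32. Its vehicle libraries stand in the same order as their parietal and chief marker sums, and the part of those cells in the Gramd1a values was not tested. The 7 other LXR targets had a median of 0.13 and the 3 tested genes of oxysterol and bile acid synthesis one of -0.25, with none at an unadjusted p under 0.05 in either.

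Most synthesis genes shared their highest library, though not their lowest. PEEPA-P5 1 was the highest of the 6 libraries in 17 of the 19, where it was the highest in 12.5% of all tested genes, and PEEPA-P5 3 in the other 2, Tm7sf2 and Ebp, against 28.6% of all tested genes. Vehicle 3 was the lowest in 9, vehicle 2 in 8 and PEEPA-P5 3 in 2. The median of the 19 genes' log2 CPM, relative to each gene's mean of 6 libraries, was 0.41, 0.10 and -0.0041 in PEEPA-P5 1, 2 and 3 and -0.069, -0.26 and -0.28 in vehicle 1, 2 and 3. PEEPA-P5 3 and vehicle 1 were thus the closest pair across the groups. Within the numbered pairs, 19, 17 and 16 of the 19 genes were higher with PEEPA-P5 in pairs 1, 2 and 3, with median log2 ratios of 0.53, 0.42 and 0.35. In all, 15 of the 19 genes were higher in every pair and 0 lower in every pair, against 22.4% and 24.5% of all tested genes. For the 5 LXR and efflux genes the pair medians were 0.091, -0.10 and -1.25. The last is the ratio of Abcg1, from 14 counts in PEEPA-P5 3 and 35 in vehicle 3. Mylip and Abca1 were lower still in pair 3, with 24 and 19 counts in PEEPA-P5 3. Nr1h2 and Nr1h3 had ratios of 0.0013 and -0.12 there.

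With the replicate number as a block, edgeR still called 0 genes past the adjusted threshold, with a smallest adjusted p of 0.364, and 12 synthesis genes were higher at an unadjusted p under 0.05, where 6.62% of all genes were, and 0 were lower, where 7.06% were. DESeq2 with the same block called 62 genes higher, or 0.474%, and 76 lower. Among them were 4 synthesis genes, Hmgcs1, Mvd, Cyp51 and Msmo1, all higher, and 0 of the other 14 members. Limma-voom with the block called 0 genes. All these blocked fits rest on a pairing taken from the same counts, so their p-values are no independent evidence. Without the block DESeq2 called 39 higher and 62 lower, and limma-voom 0, with 1533 genes at an unadjusted p under 0.05 against 1576 for edgeR.

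The scale on which libraries were compared moved the values. When libraries were scaled to the summed counts of the 8 pan-epithelial markers, whose summed TPM was higher in all PEEPA-P5 libraries than in all vehicle libraries, the median of all tested genes shifted to -0.34 and that of the synthesis genes to 0.073. Krt8 weighed most in that scale, with up to 126500 counts in a library, beside up to 24400 for Krt18. On the pan-epithelial scale 12 of the 19 synthesis genes had positive differences and 0 an unadjusted p under 0.05 (edgeR). At that p only 0.428% of all tested genes were higher on this scale. A change of scale shifts all genes nearly alike, so the distance between these medians, 0.42 here and 0.41 with TMM, does not test the scale. The synthesis genes that changed sign there were Acat2, Pmvk, Tm7sf2, Nsdhl, Sc5d and Dhcr7, whereas Hmgcs1, Mvd, Idi1, Msmo1 and Cyp51 remained positive, at 0.43, 0.55, 0.33, 0.23 and 0.14. The count of 11 synthesis genes at an unadjusted p under 0.05 was 5 without PEEPA-P5 1, 4 without vehicle 2 and 5 without vehicle 3, where 4.38%, 2.44% and 3.05% of all genes were higher at that p, and 14 without PEEPA-P5 3, where 3.85% were. The synthesis median stayed between 0.27 and 0.50 with each library left out in turn.

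**Figure D5:**
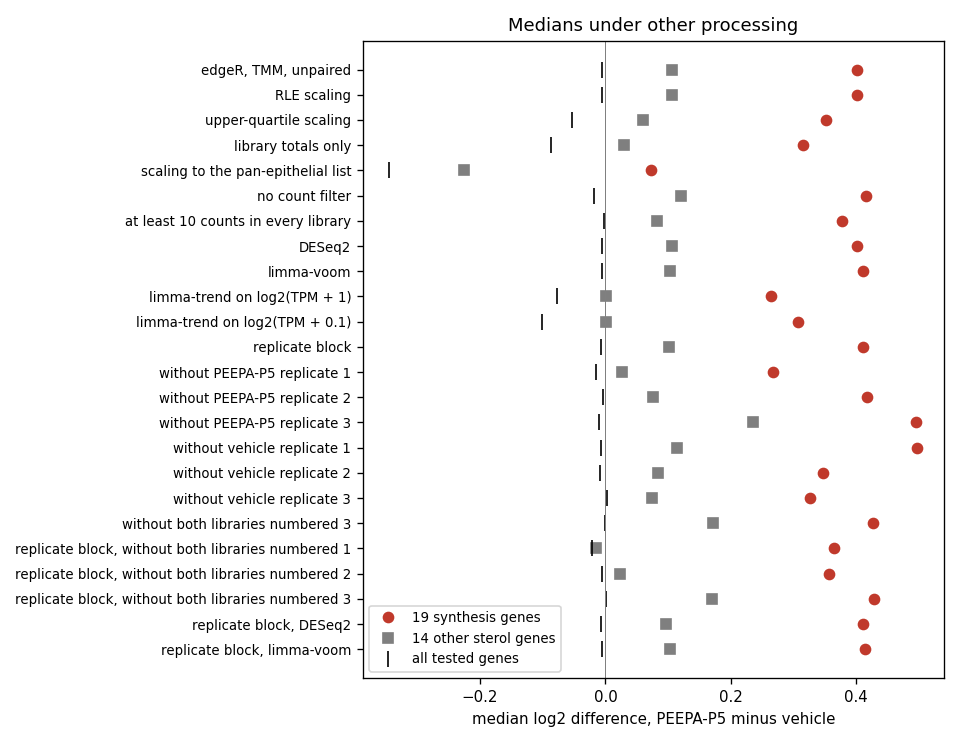
Median log2 difference of PEEPA-P5 minus vehicle under each processing alternative, for the 19 synthesis genes (red circles), the 14 other sterol genes (grey squares) and all tested genes (black ticks). All medians shift to the left when libraries are scaled to the pan-epithelial markers; a change of scale moves them nearly alike, so the distance between them is no separate evidence in those rows.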

How the data were processed

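Values per gene from RNA-seq of 6 libraries were used. Bowtie2 2.2.5, RSEM 1.2.12 and build mm9 are named, without settings, per the submitters' processing notes. The deposited table holds, per the file headers, 3 values for a gene and library: the expected count of the authors, which RSEM estimates without scaling, and their FPKM and TPM values, which are scaled to length and depth. Expected counts, of which 9.82% were not whole, were rounded. FPKM and the authors' group means entered no result.

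Counts were tested with edgeR 4.0.16 (R 4.3.3), robust quasi-likelihood, TMM, its expression filter, PEEPA-P5 against vehicle without covariates, and Benjamini-Hochberg adjustment over all 13071 genes. Alternatives used DESeq2 1.42.0, limma 3.58.1, other scaling and filters, the replicate number as a block, and libraries left out. The procedure was checked on simulated data. The changes put in were larger than any difference of the members, so the check does not cover differences of their size. Nor does it cover pairs taken from the data. The labels number both groups 1 to 3 without saying why. The pairwise correlation of deviations from group means was 0.237, 0.346 and 0.235 within numbers 1, 2 and 3, all above 0.1. Across numbers, PEEPA-P5 1 with vehicle 2 also passed 0.1, at 0.176, and the rest ran from -0.349 to 0.0271. The numbers were taken as pairs from the data, not the labels. Deviations from a mean of 3 libraries depend on each other, so these correlations are weak grounds for pairs. Results with the block use a pairing chosen from the same counts and are no independent evidence. No pair of libraries agreed within counting noise (chi-square per degree of freedom at least 13.3). No molecular identifiers are named in the labels, so the tests count reads and not molecules.

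The members, gene lists and tests were chosen with earlier results of these data known. Every member is accounted for; of each related list, up to 4 genes per direction with the smallest unadjusted p under 0.05 are named. Shared sequence was counted as stretches of 31 bases in GENCODE M21 transcripts, and promoters come from RefSeq on GRCm38.p6, a later build than the authors'; no protein sequence was used here.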

Additional observations from a re-analysis of the deposited data

How the results depend on the processing

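Of the 33 genes, 15 kept the sign of their log2 difference in all 23 alternatives. The count of 11 synthesis genes at an unadjusted p under 0.05 was 7 with upper-quartile scaling, 4 with library totals and 4 with limma on log2(TPM + 1) or log2(TPM + 0.1), while the share of all genes higher at that p, 5.92% with TMM, was 4.11%, 2.39%, 2.04% and 2.01%. The limma fits shifted the median of all genes to -0.077 and -0.101 (log2). On the pan-epithelial scale the share of all genes higher at that p was 0.428%. Scaling to the pan-epithelial markers gave 0, a synthesis median of 0.073 and a median of -0.23 for the other 14 members; it reversed Acat2 (-0.037), Pmvk (-0.041), Tm7sf2 (-0.18), Nsdhl (-0.23), Sc5d (-0.11), Dhcr7 (-0.086), Srebf2 (-0.14), Srebf1 (-0.17), Scap (-0.26), Stard4 (-0.21), Soat1 (-0.24), Nr1h3 (-0.089) and Abcg1 (-0.074). Library totals reversed Scap (-0.0017) and Soat1 (-0.022), and log2(TPM + 1) and log2(TPM + 0.1) reversed Nsdhl (-0.0096 and -0.0097), Scap (-0.019 and -0.019) and Soat1 (-0.052 and -0.076). DESeq2 called 101 genes where edgeR called 0. The causes of these shifts were not tested.

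With the replicate number as a block edgeR called 0 genes, as without it, whereas DESeq2 called 138 with the block and 101 without it, and 4 synthesis genes in place of 1. The blocked fits in DESeq2 and limma-voom, and those without both libraries of a number, were added after the data were seen. The block without both libraries numbered 1 called 1 gene, gave a median of -0.015 for the other members and reversed Lss (-0.021), Stard4 (-0.085), Npc1 (0.013), Soat1 (-0.042) and Nr1h3 (-0.12). The block without those numbered 2 left 5 synthesis genes at an unadjusted p under 0.05 and reversed Soat1 (-0.060) and Abcg1 (-0.50). The block without those numbered 3 called 1 gene and reversed Tm7sf2 (-0.0012), Lbr (0.042) and Mylip (0.21), as did the unblocked fit without them (-0.00020, 0.043 and 0.22). With single libraries left out, edgeR called 0 to 1 genes, the synthesis count was 4 to 14 and its median 0.27 to 0.50, and the median of the other members was 0.026 to 0.24. Genes whose sign then changed were Nsdhl (-0.025 to 0.22), Npc1 (-0.21 to 0.12), Soat1 (-0.24 to 0.36), Nr1h3 (-0.028 to 0.44), Nr1h2 (-0.13 to 0.045), Abcg1 (-0.093 to 0.57), Lbr (-0.22 to 0.086) and Mylip (-0.64 to 0.084). Few counts limit the precision for Nr1h3, Mylip, Abca1 and Abcg1.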
